A study of Mus musculus with 2 samples.

Results

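The 8 genes described here encode molecules by which leukocytes hold on to a vessel wall (Icam1, Icam2, Vcam1, Sele, Selp, Selplg, Itgb2 and Itga4). They were picked by symbol from the 32285 genes listed for each library, and each of the 8 had UMIs, counts of distinct RNA molecules, in the cells that passed the filters. Single cell RNA sequencing was performed on enzymatically dissociated kidneys of 19-week-old male wildtype C57BL/6J mice. The control library came from a contralateral, uninjured kidney. The ischemia library came from a kidney that underwent 27 min of ischemia and 24 h of reperfusion. Each condition was 1 library of 1 kidney, with no allele or drug that set the groups apart. The control kidney shared its body with an operated kidney and is no naive kidney.

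Leukocytes leave the blood in steps. Selectins on activated endothelium catch glycosylated ligands on passing leukocytes and make them roll, after which leukocyte integrins bind immunoglobulin-like ligands on the endothelium and hold the cell firmly. Sele (E-selectin) and Selp (P-selectin) are the endothelial selectins, and Selplg is the leukocyte glycoprotein to which P-selectin binds. Icam1 and Icam2 are ligands of integrins built on the chain that Itgb2 encodes. Vcam1 is the ligand of the integrin that holds the alpha chain encoded by Itga4.

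All 8 are protein-coding genes, and in GRCm38 the selectins both lie on chromosome 1, Sele at chr1:164048234-164057677 and Selp at chr1:164115264-164150026 on the plus strand. Icam1 lies at chr9:21015985-21028817 on the plus strand, Icam2 at chr11:106377656-106388075 on the minus strand and Vcam1 at chr3:116109949-116129688 on the minus strand. Selplg is at chr5:113818536-113832644 on the minus strand, Itgb2 at chr10:77530252-77565708 on the plus strand and Itga4 at chr2:79255426-79333123 on the plus strand.

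Sele and Icam1 are textbook targets of NF-kB, a transcription factor that inflammatory cytokines switch on. RefSeq promoter windows (GRCm38.p6, 250 bases before to 50 after the start site) matched 4 of the 8 genes, namely Icam1, Sele, Selp and Itga4. The 250 bases before the start site are shown for Sele, Selp and Icam1, the members whose levels are followed through endothelial and tubule cells below. Capitals mark matches on either strand to an NF-kB-like pattern (GGNNNTTCC), an AP-1-like pattern (TGANTCA) and a TATA box (TATAAA).
Sele, chr1:164047984-164048233, plus strand: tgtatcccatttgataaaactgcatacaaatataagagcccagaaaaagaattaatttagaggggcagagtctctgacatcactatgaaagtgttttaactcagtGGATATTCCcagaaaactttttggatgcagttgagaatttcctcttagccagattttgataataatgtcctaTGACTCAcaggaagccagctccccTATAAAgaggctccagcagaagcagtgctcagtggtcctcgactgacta
Selp, chr1:164115014-164115263, plus strand: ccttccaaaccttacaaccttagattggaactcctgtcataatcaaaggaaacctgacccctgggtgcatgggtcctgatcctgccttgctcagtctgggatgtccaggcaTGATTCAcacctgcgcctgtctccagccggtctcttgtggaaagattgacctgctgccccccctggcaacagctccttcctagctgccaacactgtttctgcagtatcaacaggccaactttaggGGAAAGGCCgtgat
Icam1, chr9:21015690-21015939, plus strand: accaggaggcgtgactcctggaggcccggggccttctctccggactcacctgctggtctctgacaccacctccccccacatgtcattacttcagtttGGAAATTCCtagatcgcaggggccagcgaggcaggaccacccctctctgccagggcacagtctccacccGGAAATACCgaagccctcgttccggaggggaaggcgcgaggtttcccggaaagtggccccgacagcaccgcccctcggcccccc

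The NF-kB-like pattern was found in 3 of the 4 windows, with its first base at -145 in Sele, at -14 in Selp on the minus strand, and in Icam1 at -153 on both strands and at -84 on the minus strand. The same letters were present in 18.5% of all 32851 promoter windows. The AP-1-like pattern lay at -73 in Sele and at -139 in Selp, and 7.81% of all windows held it. The TATA box lay at -49 in Sele and, past the start site of the window, at 14 in Icam1, and 13.6% of all windows held it. That Icam1 start site, chr9:21015940, precedes the gene start given above, chr9:21015985. The Icam1 TATA box, at chr9:21015953-21015958, lies before the latter. The Itga4 window had none of the patterns. A match of letters is no measured binding site.

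After the filters 12586 control and 13116 ischemia cells remained, with 124679362 and 128733541 UMIs and a median of 3839 and 2138.5 per cell. Clusters were named from marker genes, which gave 13 types over 10911 cells and left 3 clusters with 14791 cells unnamed, most of them in a shallow cluster of 10433 cells. The libraries shared 88 cell barcodes, 58 of them among cells that passed, and 9 EC-like cells carried such a barcode. Levels are given as CPM, the UMIs of a gene divided by all UMIs of the same cells and multiplied by 1000000. With 1 library per condition no test of ischemia against control could be made. Each interval (95%, exact Poisson for levels, exact binomial for ratios and shares) covers counting error only and no spread between kidneys.

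Most of the 8 genes fell into an endothelial or a leukocyte group, and Icam1 and Itga4 were shared with other types. In the control library EC-like cells held 88.1% (86.5–89.6) of all Icam2 UMIs, 86.8% (82.7–90.2) of Sele, 72.5% (56.1–85.4) of Selp and 59.7% (56.6–62.8) of Vcam1. In the ischemia library the shares, in the same order, were 89.9% (88.5–91.1), 95.2% (92.6–97), 93.5% (90.7–95.7) and 72.7% (71–74.4). Icam1 was spread more widely, with 36.5% (34–39) of its control and 24.6% (23.2–26.1) of its ischemia UMIs in EC-like cells. Named tubule types together held 43.4% (40.8–46) and 55.6% (53.9–57.2) of Icam1 UMIs. The 4 leukocyte types held 92.2% (89.1–94.7) and 94.6% (93.1–95.9) of Selplg UMIs, and 91.4% (87.4–94.5) and 92.9% (91.5–94.1) of Itgb2 UMIs. Itga4 was shared between leukocytes, with 46.6% (43–50.3) and 72.8% (70.5–75.1), and pericyte-like cells, with 45.1% (41.5–48.8) and 21.3% (19.3–23.5).

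**Figure D1:**
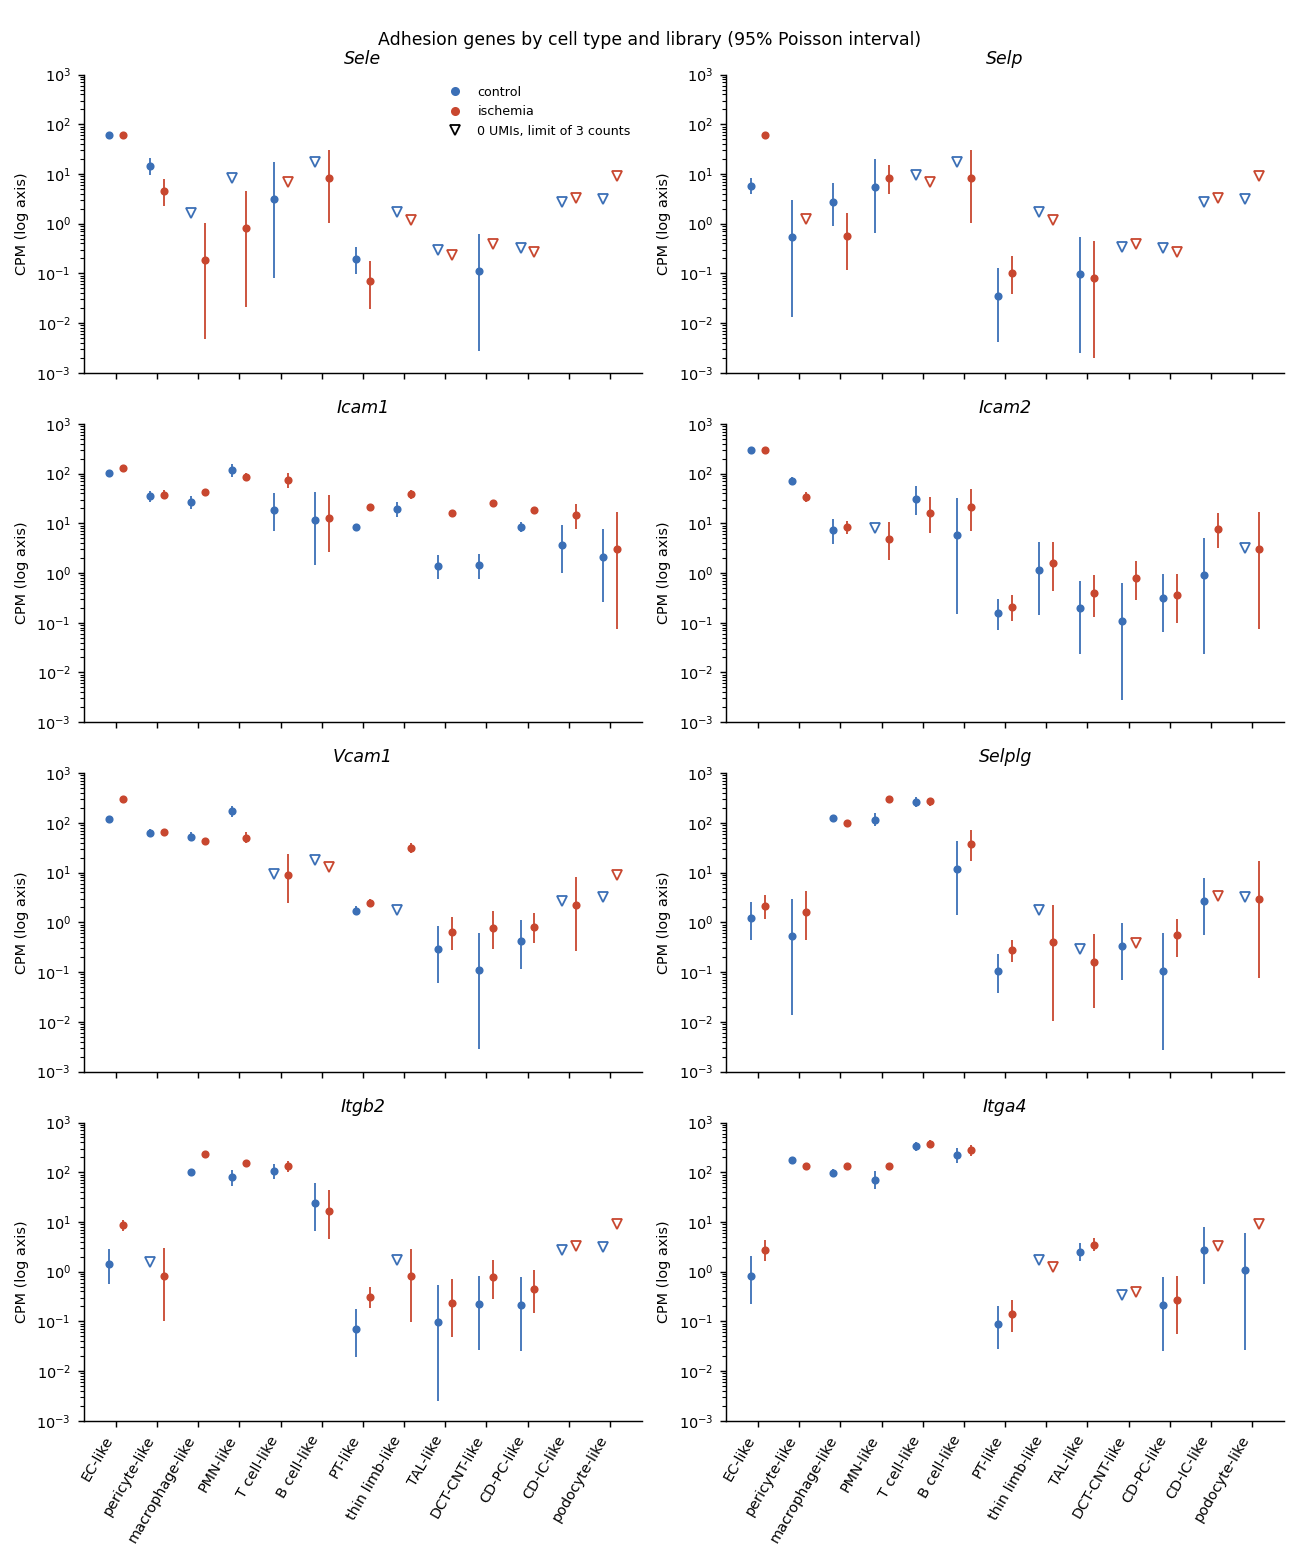
CPM (log axis) of each of the 8 genes in the 13 named types, control in blue and ischemia in red, with 95% Poisson intervals; open triangles stand for 0 UMIs and mark the level of 3 counts. Icam2, Sele and Selp stand out in EC-like cells, where Selp reads 5.82 CPM in control and 59.4 CPM in ischemia cells, while Selplg, Itgb2 and Itga4 are high in leukocyte types.

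Of the endothelial members, Selp and Vcam1 were higher in the ischemia library, whereas Icam2 and Sele were level over EC-like cells as a whole (902 control and 1039 ischemia cells). The endothelial marker Pecam1 had 3040 and 4952 UMIs in these cells. Among 12830 genes with 20 or more UMIs in these cells, 2.88% were past 2-fold higher in the ischemia library and 5.02% past 2-fold lower. The 8 adhesion genes all reached 20 UMIs, and 4 of them (Selp, Vcam1, Itgb2 and Itga4) were past 2-fold higher and 0 lower. Their median ratio was 2.17, against 0.984 over all genes compared. Itgb2 had 7 control and 56 ischemia UMIs, so that it reached 20 only through the ischemia library. Itga4 and Selplg, with 4 and 6 control UMIs, also needed their ischemia UMIs to reach 20. The count of 4 and the median thus rest in part on genes let in by the library where they were higher. Of the 4, Itga4 had 4 and 18 UMIs and was not past 2-fold once EC-like cells with leukocyte UMIs (a Ptprc UMI, or 3 or more UMIs of leukocyte markers) were left out (log2 ratio 0.20), and its sign turned when types were defined by marker UMIs (-0.54).

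Selp, stored in endothelial granules and platelets and brought to the surface on activation, showed the widest gap of the 8. It had 29 control UMIs, or 5.82 CPM (3.90–8.36), and 390 ischemia UMIs, or 59.4 CPM (53.7–65.6). The ratio came to 10.2 (7.0–15.4), a log2 ratio of 3.35, and 0.133% of the genes compared lay at or above it. Few cells carried the gene, 12 of 902 control and 70 of 1039 ischemia EC-like cells. The 5 ischemia cells with the most Selp held 31% of its UMIs.

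Sele, the other endothelial selectin, had 296 control UMIs, or 59.4 CPM (52.8–66.6), and 393 ischemia UMIs, or 59.9 CPM (54.1–66.1), with a ratio of 1.01 (0.865–1.18). It was detected in 60 control and 81 ischemia EC-like cells. Beneath the level total, sub-clusters of EC-like cells differed in direction, as given below.

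Vcam1 had 596 control UMIs in EC-like cells, or 119.7 CPM (110.2–129.7), and 2016 ischemia UMIs, or 307 CPM (294–321). The ratio came to 2.57 (2.34–2.82), with 1.46% of genes at or above it. Positive cells made up 18.7% of control and 37.3% of ischemia EC-like cells, and the 5 ischemia cells with the most Vcam1 held 10.6% of its UMIs. Vcam1 was thus spread over more cells than Selp.

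Icam1 was slightly higher, with 104 CPM (95.6–114) in control and 132 CPM (124–141) in ischemia EC-like cells and a ratio of 1.27 (1.14–1.42). Such a ratio was common, as 18.1% of genes lay at or above it. Icam2, a ligand of resting endothelium, was level, with 303 CPM (288–319) and 297 CPM (284–310.1) and a ratio of 0.978 (0.914–1.05).

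The leukocyte-side genes were sparse in EC-like cells. Itgb2 had 7 control and 56 ischemia UMIs with a ratio of 6.07 (2.76–15.8), Itga4 had 4 and 18 UMIs, and Selplg had 6 and 14 UMIs. A single ischemia cell held 9 of the Itga4 UMIs. Leukocyte markers were higher beside them. The 11 macrophage markers summed to 37.7 CPM in control and 72.5 CPM in ischemia EC-like cells, with 9 and 11 of them detected, and the 8 neutrophil (PMN) markers to 7.63 and 102 CPM, with 6 and 7 detected. Without the EC-like cells that carried leukocyte UMIs, the log2 ratio was 0.20 in place of 1.77 for Itga4 and 0.033 in place of 0.82 for Selplg. For Itgb2 it was 3.39 in place of 2.60. The Itgb2 value rests on at most 7 control UMIs, too few to read a larger ratio from. Of those 7, 5 lay in sub-cluster 4, described below, whose control cells had macrophage markers summing to 241 CPM. The 10 proximal tubule markers summed to 1734 and 588 CPM.

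**Figure D2:**
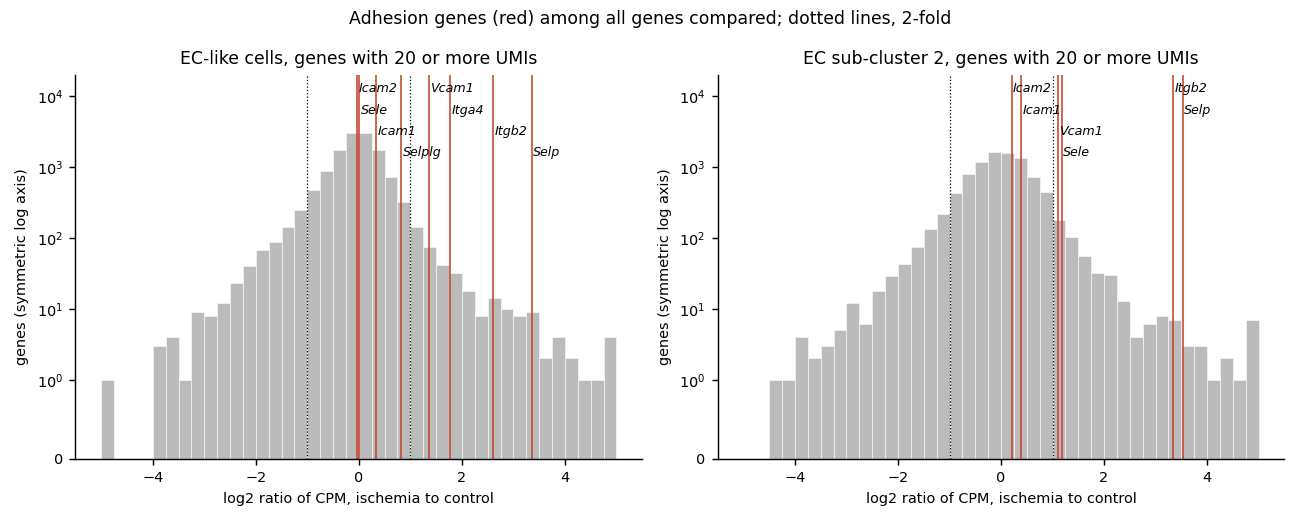
Number of genes (symmetric log axis) by log2 ratio of ischemia to control CPM in EC-like cells (left) and in their sub-cluster 2 (right), for genes with 20 or more UMIs, values past the outermost bars counted there; red lines mark the adhesion genes and dotted lines 2-fold. Selp lies far to the right in both panels, at ratios of 10.2 and 11.5, while Icam2 lies near the middle of each distribution.

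To compare shares of positive cells at one depth, each cell was thinned to 1000 UMIs. Selp was then detected in 0.567% (0.184–1.32) of control and 2.24% (1.41–3.37) of ischemia EC-like cells, and Vcam1 in 8.73% (6.95–10.8) and 18% (15.6–20.5). These shares kept the order of the levels. For Icam1 they were 7.14% (5.53–9.05) and 9.25% (7.51–11.2), for Icam2 26.5% (23.6–29.6) and 22.5% (19.9–25.2), and for Sele 3.74% (2.59–5.21) and 2.74% (1.82–3.97), pairs whose intervals overlapped. Thick ascending limb (TAL-like) cells, epithelium that should lack the vascular genes, served as background. At the same thinning Selp, Sele, Vcam1 and Icam2 were each detected in 0 of 496 control and 0 of 486 ischemia TAL-like cells. Median depth before thinning was 3803 and 4265 UMIs in EC-like cells and 19886.5 and 24563 in TAL-like cells. A background taken from deeper cells can be too low for EC-like cells. In the large shallow unnamed cluster Icam2 measured 3.12 and 4.37 CPM and Vcam1 1.91 and 7.52 CPM. TAL-like cells had 0.195 and 0.400 CPM of Icam2 and 0.292 and 0.640 CPM of Vcam1. Sele and Selp had at most 0.699 CPM in either group.

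EC-like cells were split into 7 sub-clusters without using the 8 genes. Sub-cluster 0 was capillary or vein-like (404 control and 425 ischemia cells, hemoglobin genes among its leading genes), and sub-cluster 4 was glomerular-like by Ehd3 and Gata5 (73 and 40 cells). Sub-cluster 2 (123 and 181 cells) scored highest on the lymphatic list, yet 19 of its 304 cells had UMIs of 2 or more lymphatic markers and 25 had Prox1, the lymphatic regulator. Its leading genes included Mmrn1 of the lymphatic list, Ccl21a, S100a8, S100a9 and Il1b. It had Nr2f2, a transcription factor of vein endothelium, at 354 and 403 CPM, against 116 and 115 CPM in sub-cluster 0. Plvap, a diaphragm protein of fenestrated vessels, was at 3361 and 2704 CPM, against 2736 and 2437 CPM in sub-cluster 0. These genes are only part of the capillary or vein list and do not settle a name. Sub-cluster 2 is therefore called by its number. Sub-clusters 1, 3, 5 and 6 stayed unnamed, and tubule transcripts were among the leading genes of 1 and 5.

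Sub-cluster 2 held 318 of the 390 ischemia Selp UMIs of EC-like cells. Its 13 control UMIs gave 19.3 CPM (10.3–33.1), its ischemia level was 222 CPM (199–248), and the ratio came to 11.5 (6.63–21.8). Selp-positive cells numbered 6 of 123 in the control and 52 of 181 in the ischemia library. The 5 highest cells held 92.3% of the control and 33.3% of the ischemia UMIs. Without the 5 ischemia cells, an omission that can only lower the ratio, its log2 was 3.01 in place of 3.52. With the 5 highest of each library left out, 1 control UMI remained, too few to read a ratio from. Sub-cluster 0, with more cells, had 1 control and 6 ischemia Selp UMIs. Sub-cluster 5 had 0 and 31, the latter all from 1 of 32 cells, sub-cluster 1 had 0 and 9, and sub-cluster 6 had 1 and 7. Sub-cluster 3 had 0 in both libraries, which allows up to 2.77 and 1.95 CPM.

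Sele was higher in ischemia cells of sub-cluster 2 and lower in those of the glomerular-like sub-cluster. In sub-cluster 2 its 50 control UMIs gave 74.4 CPM (55.2–98) and its 241 ischemia UMIs 168 CPM (148–191), with a ratio of 2.27 (1.66–3.14). In both libraries few cells held most of its UMIs, the 5 highest 68% in control and 56% in ischemia cells, 1 of the latter 65 UMIs. The log2 ratio of 1.18 became 0.071 when the 5 ischemia cells alone were left out, and 1.64 when the 5 highest of each library were. The former can only lower the ratio, and the latter takes a larger share of the 123 control than of the 181 ischemia cells. In glomerular-like cells Sele measured 419 CPM (365–478) in control and 278 CPM (225–340.5) in ischemia cells, with a ratio of 0.664 (0.516–0.849). There 35 of 73 control and 10 of 40 ischemia cells were positive, the 5 highest ischemia cells holding 88.3%. Glomerular-like cells held 221 of the 296 control Sele UMIs and 94 of the 393 ischemia UMIs of EC-like cells.

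Vcam1 was higher in sub-clusters 0, 1, 2 and 5, level in sub-cluster 3 and lower in sub-cluster 6. In sub-cluster 0 the control level of 58.2 CPM (46.7–71.7) stood against 291 CPM (267–316) in ischemia cells, a ratio of 5.0 (3.98–6.33) that 0.437% of 10289 genes reached. Positive cells there numbered 52 of 404 and 170 of 425. In sub-cluster 2 the levels were 341 CPM (298–388) and 728 CPM (685–774), a ratio of 2.14 (1.85–2.48). In sub-cluster 3, led by the water channel gene Aqp1 and the urea transporter gene Slc14a1, Vcam1 was level with 159 CPM (136–185) and 156 CPM (137–177). Glomerular-like cells had 4 and 2 Vcam1 UMIs, so that the sub-cluster with the most control Sele UMIs had almost no Vcam1. The ratio was 1.75 (1.27–2.43) in sub-cluster 1 and 2.18 (1.18–4.21) in sub-cluster 5. Sub-cluster 6 ran the other way, at 191 CPM (126–278) and 104 CPM (66.8–155), a ratio of 0.545 (0.301–0.981).

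Icam1 and Icam2 were present in all 7 sub-clusters of both libraries. Icam1 ran from 36.1 CPM in sub-cluster 5 to 298 CPM in sub-cluster 6 of the control, and from 52.5 CPM in sub-cluster 5 to 249 CPM in sub-cluster 2 of the ischemia library. Its ratio in sub-cluster 2 was 1.31 (1.07–1.61), a log2 ratio of 0.39. The 5 highest cells held 33.6% of control and 30.9% of ischemia Icam1 UMIs, and the log2 ratio was -0.047 without those of the ischemia library alone and 0.45 without those of both. In sub-cluster 6, of 15 control and 20 ischemia cells, the Icam1 ratio was 0.540 (0.338–0.861). Icam2 ratios ran from 0.743 (0.501–1.09) in sub-cluster 5 to 1.15 (0.969–1.38) in sub-cluster 2, and the interval of sub-cluster 3 lay below 1 at 0.809 (0.704–0.929).

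In sub-cluster 2, 5.05% of 9004 genes were past 2-fold higher and 6.09% past 2-fold lower in the ischemia library. Of the 6 adhesion genes with 20 or more UMIs there, 4 were past 2-fold higher (Selp, Itgb2, Sele and Vcam1) and 0 lower. Itgb2, with 2 control and 43 ischemia UMIs, and Selp, with 13 and 318, reached 20 UMIs only through the ischemia library. Leukocyte markers were higher beside Itgb2, as given below. The log2 ratio of Vcam1, 1.10, was under 2-fold without cells that had 2 or more lymphatic markers (0.97), without the 8% highest doublet scores (0.95) and without the 5 highest ischemia cells alone (0.85), but not without the 5 highest of each library (1.29). Sele was under 2-fold without the highest doublet scores (0.95) and without the 5 highest ischemia cells alone. In sub-cluster 0, where 3.49% of genes were past 2-fold higher, 1 of 4 adhesion genes was (Vcam1). In glomerular-like cells, with 3.73%, it was 1 of 4 (Selp, 14 and 19 UMIs), and 18 of those ischemia UMIs lay in 1 cell. In sub-cluster 3, with 3.70%, it was 0 of 3.

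**Figure D3:**
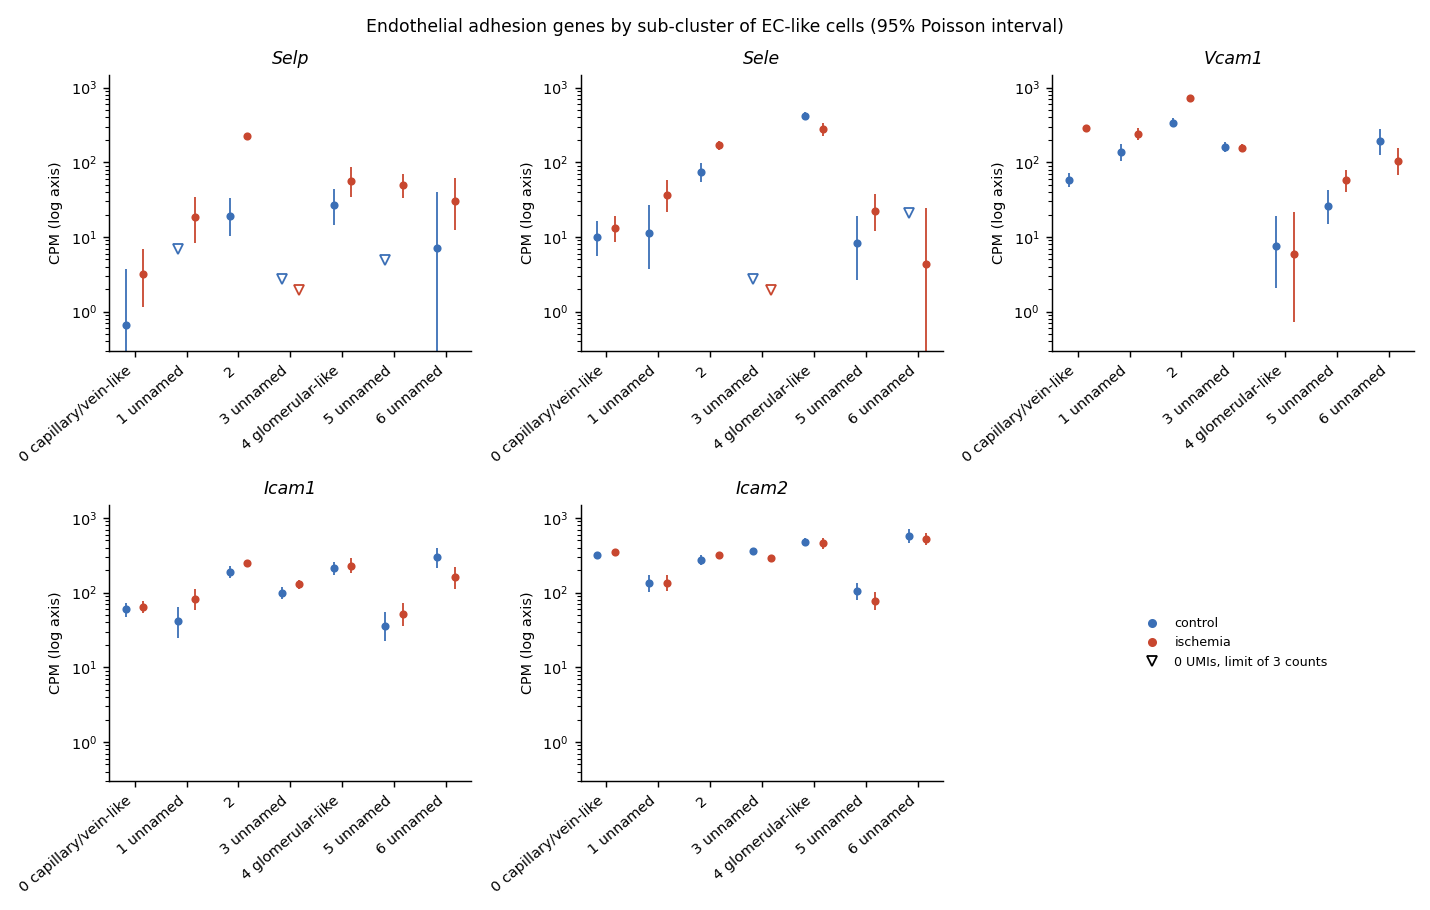
CPM (log axis) of Selp, Sele, Vcam1, Icam1 and Icam2 in the 7 sub-clusters of EC-like cells, control in blue and ischemia in red, with 95% Poisson intervals; open triangles mark the level of 3 counts where no UMI was found. Selp and Vcam1 reach 222 and 728 CPM in ischemia cells of sub-cluster 2, and Sele reaches 419 CPM in control glomerular-like cells.

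The selectins were often detected in the same cells of sub-cluster 2. With ischemia cells thinned to 1000 UMIs, Sele was detected in 7 of 18 Selp-positive cells (38.9%, 17.3–64.2) and in 5 of 163 Selp-negative cells (3.07%, 1.0–7.01). The corresponding numbers were 11 of 18 (61.1%, 35.8–82.7) and 54 of 163 (33.1%, 26–40.9) for Vcam1, and 4 of 18 (22.2%, 6.41–47.6) and 25 of 163 (15.3%, 10.2–21.8) for Icam1. Of these 3 genes, Sele had intervals that lay apart. All these cells came from 1 library and are no replicates.

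Itgb2 had 2 control and 43 ischemia UMIs in sub-cluster 2, or 2.97 CPM (0.360–10.7) and 30.1 CPM (21.8–40.5). Leukocyte markers were higher there too, the macrophage list summing to 32.7 and 258 CPM with 5 and 11 of 11 markers detected, and the PMN list to 7.44 and 408 CPM with 2 and 7 of 8. A single ischemia cell held 181 of the 188 UMIs of S100a8, a neutrophil gene on the PMN list. Of 23 Itgb2-positive ischemia cells, 4 had a UMI of Ptprc, the pan-leukocyte marker, 4 had a UMI of an alpha chain that pairs with Itgb2, and 23 had the endothelial genes Cdh5 or Pecam1. Cdh5 and Pecam1 belong to the marker list by which EC-like cells were named, so nothing is read from the last count. The 19 cells without Ptprc held 31 of the 43 Itgb2 UMIs.

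Without the 7 control and 19 ischemia EC-like cells that carried leukocyte UMIs, the log2 ratio in sub-cluster 2 was 3.34 for Selp, 1.06 for Sele and 1.0 for Vcam1. Platelets also carry Selp. Of platelet markers, Ppbp and Gp9 had 0 UMIs in sub-cluster 2, and Pf4, which macrophages express as well, had 2 and 11.

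Outside the endothelium Icam1 was higher in the ischemia library in every tubule type with 20 or more of its UMIs. A small epithelial group within the PMN-like class ran the other way, as given below. The large shallow unnamed cluster had 7.28 and 18.7 CPM of Icam1, a ratio of 2.57 (1.78–3.77). Those values are close to the PT-like and CD-PC-like ones below, and how far background adds to these types was not tested. TAL-like cells had 14 control UMIs in 13 of 498 cells and 200 ischemia UMIs in 75 of 488 cells. The levels were 1.36 CPM (0.745–2.29) and 16 CPM (13.8–18.4), a ratio of 11.7 (6.83–21.9). Among 12819 genes of this type 9.67% were past 2-fold higher and 0.694% reached the Icam1 ratio. With 14 control UMIs, Icam1 reached the 20 needed for this comparison only through the ischemia library. Distal convoluted and connecting tubule (DCT-CNT-like) cells had 13 UMIs in 8 of 464 control cells and 198 UMIs in 70 of 355 ischemia cells. Here 1.44 CPM (0.768–2.46) stood against 25.9 CPM (22.4–29.7), a ratio of 17.9 (10.3–34.3). In this type 8.36% of genes were past 2-fold higher and 0.479% lay at or above that ratio. Again Icam1, with 13 control UMIs, reached 20 only through the ischemia library. As a mean over single cells the log2 ratio in DCT-CNT-like cells was 3.22 in place of 4.17. Clustered without integration of the libraries it was 2.07, but in a different class of cells. No collecting duct principal class was named there, and a DCT-CNT-like cluster of 1494 cells led with Aqp2, a principal cell marker.

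Proximal tubule (PT-like) cells held the most Icam1 UMIs of the tubule types. There were 475 in 393 of 2200 control cells and 1247 in 720 of 1754 ischemia cells, or 8.31 CPM (7.58–9.09) and 21.6 CPM (20.5–22.9). The ratio came to 2.60 (2.34–2.90), in a type with 8.29% of genes past 2-fold higher. Both PT-like clusters showed a higher level, with ratios of 2.78 (2.43–3.20) and 2.33 (1.96–2.78). Without integration of the libraries the log2 ratio in PT-like cells was 0.55 in place of 1.38. That PT-like class held 2000 control and 224 ischemia cells. There a cluster of 134 control and 1491 ischemia cells stayed unnamed, with the tubule injury gene Havcr1 among its leading genes. The values thus rest on different cells. Selplg and Itgb2 were also past 2-fold higher in PT-like cells, which made 3 of 5 adhesion genes compared there. They had 6 and 16 UMIs and 4 and 18 UMIs, at most 0.312 CPM, and reached 20 UMIs mostly through the ischemia library. The Selplg interval, 0.983–8.26, included 1, and 5 ischemia cells held 75% of its UMIs. Over all kept cells these leukocyte genes were higher too, with ratios of 2.71 and 5.71.

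In collecting duct principal (CD-PC-like) cells Icam1 measured 8.57 CPM (6.80–10.7) in control and 18.8 CPM (16.4–21.6) in ischemia cells, a ratio of 2.20 (1.69–2.88), with 7.30% of genes past 2-fold higher. As a mean over single cells the log2 ratio there was 0.72, under 2-fold, in place of 1.14. Intercalated (CD-IC-like) cells had 4 and 13 UMIs, under the 20 needed. In thin limb-like cells, with 5.29% of genes past 2-fold higher, the levels were 19.2 CPM (13.2–26.9) and 38.5 CPM (31.1–47), but 5 ischemia cells held 66.3% of the UMIs, and the log2 ratio was 0.11 without integration in place of 1.01. In the control library thin limb-like cells had the highest Icam1 level of the tubule types, from 33 UMIs in 11 of 90 cells. Of these UMIs 5 cells held 78.8%, a concentration that the interval does not cover. CD-PC-like and PT-like control cells did not differ beyond their intervals, and DCT-CNT-like and TAL-like cells at the low end did not either. In the ischemia library thin limb-like cells were again highest, and each next pair in the order from DCT-CNT-like through PT-like, CD-PC-like and TAL-like cells had intervals that overlapped.

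All named tubule types together held 43.4% (40.8–46) of control and 55.6% (53.9–57.2) of ischemia Icam1 UMIs. At 1000 UMIs per cell Icam1 was detected in 0.779% (0.454–1.24) of control and 2.93% (2.19–3.83) of ischemia PT-like cells. The thinned shares were 0.202% and 1.65% of TAL-like cells and 0.217% and 1.99% of DCT-CNT-like cells, each from 8 cells or fewer. In CD-PC-like cells the thinned shares ran against the levels, with 4 positive control cells and 1 positive ischemia cell, so no order is read from them.

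**Figure D4:**
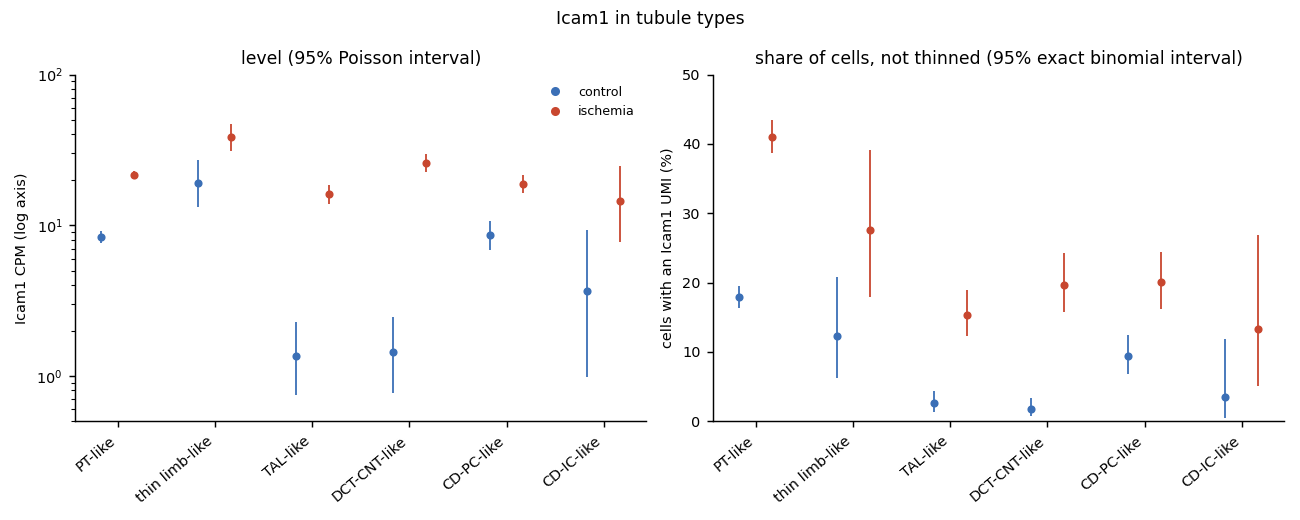
Left, Icam1 level (CPM, log axis, 95% Poisson interval) and right, share of cells with an Icam1 UMI (%, not thinned, 95% exact binomial interval) in 6 tubule types, control in blue and ischemia in red. The level is higher in the ischemia library in each type, and the distance is widest in TAL-like cells (1.36 and 16 CPM) and DCT-CNT-like cells (1.44 and 25.9 CPM).

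Vcam1 in tubule cells rested on few cells. In thin limb-like cells it had 0 control and 79 ischemia UMIs, the latter from 4 cells, 59 of them from 1. In PT-like cells it had 98 UMIs in 15 control cells and 143 UMIs in 41 ischemia cells. The PT-like ratio of 1.45 (1.11–1.89) turned with the mitochondrial limit set at 25%, where the log2 ratio was -0.87. Sele and Selp had at most 11 UMIs per library in any named tubule type.

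Vcam1 was also found among PMN-like and macrophage-like cells. The PMN-like class held 32 cells that a finer clustering set apart as parietal epithelium-like, the lining of Bowman's capsule (14 control and 18 ischemia cells). These cells had 63 control and 52 ischemia Vcam1 UMIs, or 257 CPM (197–328) and 154 CPM (115–201). Their Icam1 was lower in the ischemia library, unlike that of the tubule types. The control level of 138 CPM stood against 20.7 CPM, a ratio of 0.149 (0.0559–0.342), from 41 UMIs over both libraries. How these UMIs were spread over the cells was not tested. The PMN-like cells of the finer clustering (19 and 190 cells) had 0 and 10 Vcam1 UMIs, and the PMN-like levels below are theirs. The shares of UMIs held by leukocyte types and the plot over the 13 named types use the whole PMN-like class, in which the log2 ratio was 0.96 for Itgb2 and 0.93 for Itga4.

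Macrophage-like cells (288 control and 574 ischemia cells) had Vcam1 at 52.5 CPM (42.4–64.2) and 42.9 CPM (37.5–48.9). Most of it lay in C1q-high macrophage-like cells (192 and 169 cells), where 81.3 CPM (65.5–99.7) stood against 119.9 CPM (104–137), a ratio of 1.48 (1.15–1.91). Monocyte-like cells (20 and 272 cells) had 0 and 5 Vcam1 UMIs. The slightly lower total of macrophage-like cells thus went with a higher level in C1q-high cells and more monocyte-like cells in the ischemia library.

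Icam1 in macrophage-like cells measured 26.2 CPM (19.3–34.9) in control and 43.1 CPM (37.7–49.1) in ischemia cells. C1q-high cells were level at 30.0 and 29.7 CPM, while ischemia monocyte-like cells had 51.8 CPM (43.4–61.4) against 1 UMI in the 20 control cells. T cell-like cells had 6 control and 32 ischemia Icam1 UMIs, or 18.8 CPM (6.89–40.8) and 73.3 CPM (50.1–104), a ratio of 3.91 (1.61–11.4). Of 4 adhesion genes compared in T cell-like cells, 1 was past 2-fold higher (Icam1) and 0 lower. Of 5361 genes there, 5.22% were higher and 4.42% lower. Icam1, with 6 control UMIs, reached 20 only through the ischemia library.

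Itgb2, the common chain of the leukocyte integrins that bind Icam1 and Icam2, was higher in ischemia macrophage-like cells. Its 178 control UMIs gave 99.3 CPM (85.3–115) and its 1218 ischemia UMIs 228 CPM (216–241), with a ratio of 2.30 (1.96–2.71). Among 11266 genes in these cells 6.78% were past 2-fold higher and 7.70% lower, and of 6 adhesion genes 1 was higher (Itgb2) and 0 lower. Within sub-clusters the difference was smaller. C1q-high cells had 83.9 CPM (67.9–103) and 125 CPM (109–143), a ratio of 1.49 (1.17–1.92), and 0 of 5 adhesion genes past 2-fold higher there, where 7.92% of genes were. Monocyte-like cells had 331 CPM (239–446) and 346 CPM (324–369.6), a ratio of 1.05 (0.770–1.46). Monocyte-like cells were 20 of the 288 control and 272 of the 574 ischemia cells of the class.

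Other leukocytes gave Itgb2 levels whose intervals overlapped between the libraries. PMN-like cells had 238 CPM (159.7–342) and 212 CPM (183–245), T cell-like cells 106 CPM (73.6–149) and 133 CPM (101–172), and B cell-like cells 4 and 4 UMIs. Thinned to 1000 UMIs, 9.22% (6.11–13.2) of control macrophage-like cells were positive, against 19.5% (16.3–23.1) of those from the ischemia library. EC-like cells, which should lack the gene, gave 0.113% and 0.406%. Median depth before thinning was 5559.5 and 8628 UMIs in macrophage-like cells.

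Selplg, the P-selectin ligand, was lower in ischemia macrophage-like cells, with 126 CPM (110.2–144) and 99.1 CPM (90.9–108) and a ratio of 0.786 (0.672–0.923). It was lower in C1q-high cells with 105 CPM (87.1–126) and 67.5 CPM (55.8–81), and in monocyte-like cells, where 23 control UMIs gave 177 CPM (112–266) against 104 CPM (92.3–118). Dendritic-like cells of sub-cluster 3 were level, at 265 and 259.5 CPM, and so were T cell-like cells, at 266 and 270.4 CPM. PMN-like cells had the highest Selplg level of the leukocyte types, 353 CPM (256–476) and 409 CPM (368–454). Thinned shares of macrophage-like cells ran against the levels at 9.93% (6.70–14) and 11.5% (9.02–14.5), so no order is read from them.

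Itga4, the alpha chain that binds Vcam1, was highest in control monocyte-like cells, where 65 UMIs gave 500.2 CPM (386–638) against 216 CPM (199–235) in ischemia cells, a ratio of 0.432 (0.334–0.568). In monocyte-like cells 14.1% of genes were past 2-fold lower and 10.9% higher, and of 5 adhesion genes 1 was lower (Itga4) and 1 higher (Icam1). Over all macrophage-like cells Itga4 had the opposite order, 98.8 CPM (84.7–114) and 133 CPM (123–143). C1q-high cells had low levels, 35.3 CPM (25.2–48.1) and 30.3 CPM (22.6–39.7). The intervals overlapped in T cell-like (331 and 376 CPM), B cell-like (219 and 279 CPM) and PMN-like cells (214 and 186 CPM). In PMN-like cells 0 of 4 adhesion genes were past 2-fold higher and 0 lower, against 24.1% and 4.34% of all genes.

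**Figure D5:**
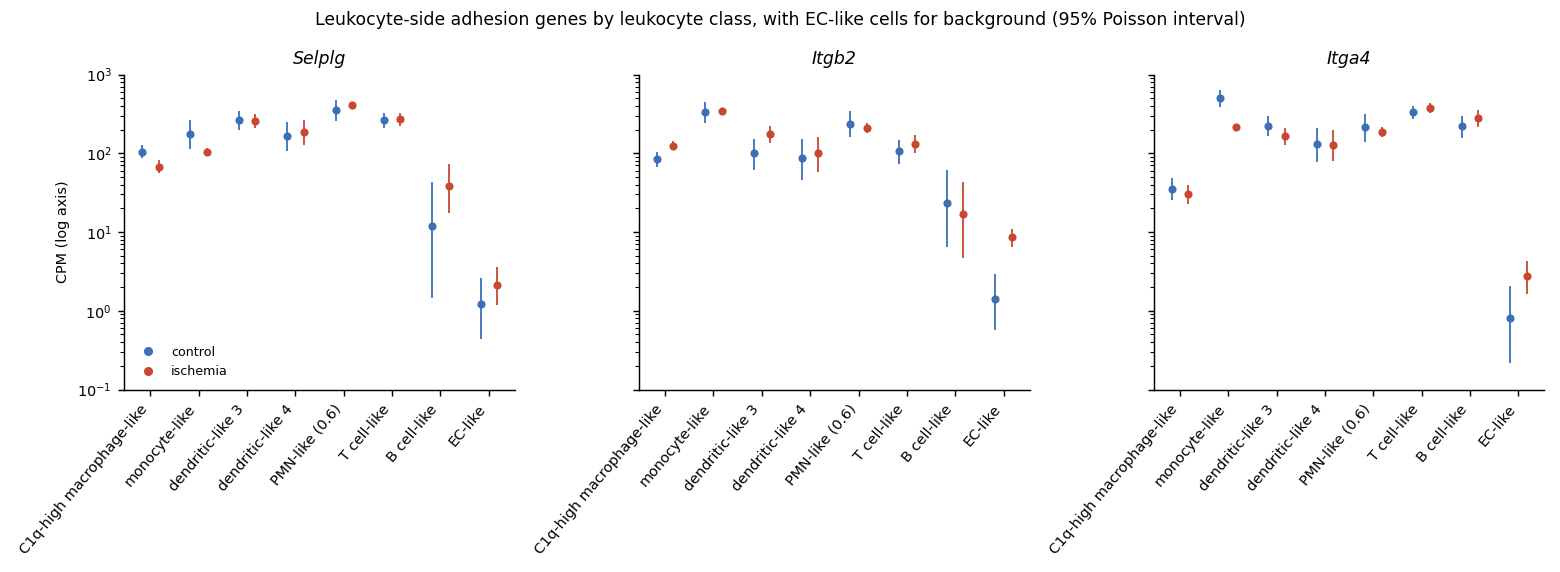
CPM (log axis) of Selplg, Itgb2 and Itga4 in macrophage-like sub-clusters, PMN-like cells of the finer clustering, T cell-like, B cell-like and EC-like cells, control in blue and ischemia in red, with 95% Poisson intervals. In monocyte-like cells Itgb2 is level (331 and 346 CPM) and Itga4 differs (500.2 and 216 CPM), and EC-like cells lie lowest for each of the 3 genes.

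Pericyte-like cells (243 control and 296 ischemia cells) carried Itga4 at 178 CPM (159.8–198) and 133 CPM (119–148). A finer clustering split them into pericyte-like cells, with 123 CPM (98.6–150.4) and 134 CPM (116–155), and an unnamed cluster with the fibroblast gene Dcn, with 215 CPM (189–244) and 131 CPM (109.6–154). The unnamed cluster scored highest on the EC list. The direction of Itga4 in pericyte-like cells therefore depended on the clustering. In the whole class 2 of 5 adhesion genes were past 2-fold lower (Icam2 and Sele) and 0 higher, against 3.93% and 3.43% of all genes. The finer pericyte-like cells had 0 and 1 Icam2 UMIs and 0 of Sele in each library. Over both libraries the unnamed cluster held 215 of the 216 Icam2 and 38 of the 38 Sele UMIs of the class. Its ratios were 0.667 (0.501–0.885) for Icam2 and 0.441 (0.197–0.919) for Sele, so neither call describes the finer pericyte-like cells.

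As a description, the genes most like each member were taken by Pearson's r of log levels over 22 groups of a type and a library, among 15710 genes. The groups come from 2 libraries and differ in depth. Icam2 was most like Pecam1 (r = 0.976), Calcrl and Pde2a, Vcam1 like Stom (r = 0.919), Cd93 and Lmo2, and Sele like Crispld1 (r = 0.971), Zfp979 and Clec14a. Selp was most like Hba-a2 (r = 0.948), Hbb-bt and Hbb-bs, hemoglobin genes of red blood cells. That likeness is over whole types and did not hold within EC-like cells. Sub-cluster 2, with 318 of their 390 ischemia Selp UMIs, had 0.00019% of its UMIs from hemoglobin genes. Sub-cluster 0 had 0.31% from hemoglobin genes and 7 Selp UMIs over both libraries. Icam1 was most like Klf3 (r = 0.914), Parp14 and Irf7. On the leukocyte side, Selplg was most like Rac2 (r = 0.996), Laptm5 and Gpr132, Itgb2 like Lcp2 (r = 0.985), Prkcb and Ltb4r1, and Itga4 like Batf (r = 0.966), Runx2 and Kif21b.

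The wider adhesion cascade was followed with a list of 35 further genes. In EC-like cells 28 had 20 or more UMIs, of which 2 were past 2-fold higher (Fut4 and Itgam) and 1 lower (Gcnt1), with a median ratio of 1.06. Over all genes in these cells the shares were 2.88% higher and 5.02% lower, and the median ratio was 0.984. Gcnt1, an enzyme that builds glycans of selectin ligands, had 94.8 CPM (86.4–104) and 45.1 CPM (40.1–50.6), a ratio of 0.476 (0.410–0.552). Fut4 had 6 and 30 UMIs and Itgam 2 and 18, so that both reached 20 only with their ischemia UMIs. Of the 6 genes for crossing the endothelium, 0 were past 2-fold higher and 0 lower, among them the junction genes Cdh5 at a ratio of 1.31 (1.24–1.38), Esam at 1.40 (1.32–1.49) and Pecam1 at 1.24 (1.18–1.29). Podxl, a sialomucin, had a ratio of 0.620 (0.586–0.655), and the cytokine receptor genes Tnfrsf1a and Il1r1 had ratios of 1.34 (1.22–1.47) and 1.01 (0.808–1.26).

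In sub-cluster 2 of EC-like cells 22 list genes were compared, with 1 past 2-fold higher and 2 lower (Gcnt1 and Thy1), against 5.05% and 6.09% of all genes. The higher one was Tnfaip3, an NF-kB target that restrains the same pathway. It had 3 control and 37 ischemia UMIs and reached 20 only through the ischemia library. In macrophage-like cells 6 of 28 were past 2-fold higher and 1 lower (F11r), against 6.78% and 7.70% of all genes. Fn1, a matrix ligand of the Itga4 integrin, had 20.1 CPM (14.1–27.8) and 598 CPM (578–619), and monocyte-like cells held 2996 of its 3191 ischemia UMIs. Itgam and Itgal, whose chains pair with Itgb2, had ratios of 2.54 (2.20–2.95) and 2.10 (1.66–2.70), and Rasgrp2, which helps to activate integrins, 2.18 (1.46–3.38). The others were Cd34 and Cdh5, from 31 ischemia UMIs each. With 5 and 3 control UMIs, they reached 20 only through the ischemia library. In PMN-like cells 5 of 18 were past 2-fold higher (Itgb1, F11r, Tnfrsf1b, Nfkbia and Tnfaip3) and 0 lower. Of all genes there, 24.1% were higher and 4.34% lower. All of the 5 but Nfkbia had under 20 control UMIs and reached 20 only through the ischemia library. In T cell-like cells 0 of 17 were higher and 2 lower (Gcnt1 and Il1r1), against 5.22% and 4.42% of all genes.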

How the data were processed

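Droplet 3′ single cell libraries of 1 control and 1 ischemia kidney were measured. The authors deposited filtered UMI counts per gene and cell, made with Cell Ranger 7.0.0 against mm10, with no normalization. Such counts depend on the gene models and on reads near the 3′ end. Barcodes were kept with 200 genes or more, a UMI total from 500 to 150000, and mitochondrial transcripts not above 55%. Libraries were integrated with Seurat 5.3.0 in R 4.3.3 on 2000 variable genes without the 8 members (30 components, resolution 0.3, finer clustering at 0.6, seed 42), and clusters took the name of their leading marker list. The large shallow cluster scored highest on the red blood cell list, with hemoglobin genes among its leading genes. It stayed unnamed because hemoglobin genes made up 0.0803% of its UMIs, under a limit of 50% set after seeing the data. UMIs were summed per type and library and given as CPM with exact Poisson intervals, with numpy 2.4.6 and scipy 1.17.1 in Python 3.11.15. Ratios take 0 UMIs as 3 counts where genes are counted past 2-fold, among genes with 20 or more UMIs. Likeness used log2(CPM + 1), groups of 50 or more cells and genes of 100 or more UMIs. Intervals were tested on simulated Poisson counts, the model they assume, which does not cover UMIs gathered in few cells. Doublets were left in, since Scrublet (scanpy 1.11.5) called 0 cells. No cell type annotation file was used, so names may differ from those of the study. The members, the cascade list and the marker lists were chosen with earlier results of these data known. Named genes are the 8 members, the genes of the cascade list and the 3 genes most like each member. Leaving out the 8% highest doublet scores, cells with a shared barcode, cells with leukocyte UMIs, cells with lymphatic markers or the 5 highest cells (of the ischemia library, or of each library), and the control mix of sub-clusters, were added after seeing the data.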

Additional observations from a re-analysis of the deposited data

Results flagged for a closer look

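Icam1 and Vcam1 were also found above the control level in unnamed clusters and removed barcodes, which were outside the comparisons within named types. Of these, unnamed cluster 0 was used above for background levels. In the ischemia library Icam1 reached 18.7 CPM (15.3–22.6) against 7.28 CPM in the control cells of unnamed cluster 0, the large shallow cluster. It reached 9.43 CPM (7.67–11.5) against 5.03 CPM in unnamed cluster 1 and 7.94 CPM (5.36–11.3) against 1.17 CPM in unnamed cluster 4. Among barcodes that the filters removed it reached 7.59 CPM (6.23–9.17) against 2.11 CPM. Vcam1 reached 7.52 CPM (5.44–10.1) against 1.91 CPM in unnamed cluster 0 and 1.76 CPM (1.14–2.59) against 0.389 CPM among removed barcodes. With 1 library per condition no outlying sample could be looked for.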

How the results depend on the processing

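Of the log2 ratios recomputed under the alternatives, 329 stayed within their interval, 36 moved past it and 8 changed sign. With types defined by their marker UMIs instead of by clustering, EC-like cells gave -0.30 for Icam2, 1.05 for Vcam1, -0.27 for Sele and -0.54 for Itga4, whose sign turned, and macrophage-like cells gave -0.079 for Selplg, 1.45 for Itgb2 and 0.84 for Itga4. Weighting ischemia EC-like cells to the control mix of sub-clusters gave 1.08 for Vcam1. Averaging CPM over single cells gave -0.26 for Sele, and leaving out the 8% highest doublet scores gave -0.14 for Icam2. At the finer resolution the sign turned for Itga4 in pericyte-like cells (0.13) and, in PMN-like cells, for Itgb2 (-0.17 in place of 0.96) and Itga4 (-0.20 in place of 0.93), and without integration PMN-like cells gave -0.11 and -0.17. The sign also turned for Vcam1 in PT-like cells at 25% mitochondrial UMIs (-0.87) and for Icam1 in EC sub-cluster 2 without the 5 highest ischemia cells (-0.047), an omission on 1 side only, and stayed higher without the 5 highest of each library (0.45). The causes were not tested. Without cells of a shared barcode 44 of 44 ratios stayed within their interval. Of the levels, 412 stayed within their interval and 131 moved, as did 375 and 105 of the shares of cells. Scrublet's own threshold called 0 cells, so leaving out its doublets gave no value. No paired analysis was possible because each condition was 1 library and no test was run. Genes under 20 UMIs in a type were too shallow to read a ratio from.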
